A study of Mus musculus with 57 samples.

Results

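Common lymphoid progenitors (CLP) and megakaryocyte-erythrocyte progenitors (MEP) were compared in the bone marrow of control mice, across all genes measured by RNA sequencing. The 8 libraries, 4 CLP and 4 MEP, were all the libraries of the 57 in the series that the labels give as CLP or MEP tissue from control-treated mice. They were chosen by these labels and not by any measured value. The mice were C57BL/6 males aged 8 weeks that received a control antibody for 4 weeks before the marrow was taken and sorted. The labels give no altered genotype, and both groups shared the control antibody. Each library came from a pool of mice, and pools 1, 3, 5 and 7 each gave 1 CLP and 1 MEP library, all of batch A. The series asks how an antibody against PAPP-A, a protease of the insulin-like growth factor (IGF) axis, affects marrow cells, and the treated CLP and MEP libraries (pools 2, 4, 6 and 8) serve below as other mice for the same contrast. The labels leave out how many mice a pool held and which surface markers defined each sort, so a difference in a receptor gene such as Il7r, Flt3 or Kit may follow from the sort itself.

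The CLP and the MEP stand on different branches of blood formation. The CLP, classically marked by the interleukin-7 receptor and the FLT3 receptor, gives rise to B cells, natural killer cells and, with lower efficiency, T cells and some dendritic cells, and it begins the DNA rearrangement of antigen receptor genes with the RAG recombinase and terminal transferase. The MEP gives rise to red cells and platelets. Its erythroid programme is driven by the transcription factors GATA1, KLF1 and TAL1, which switch on heme synthesis, the red cell membrane skeleton and, later, the globins.

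Total counts were 3850000, 8268213, 587316 and 1121453 in the CLP libraries of pools 1, 3, 5 and 7, against 12826162, 8658019, 6886882 and 42471152 in the MEP libraries of the same pools. The MEP libraries resembled each other more closely (correlation of log-scaled counts across genes 0.972 to 0.984) than the CLP libraries did (0.718 to 0.924). CLP pool 1 stood apart: its 10 most abundant genes took 21.7% of its counts, against 5.75% to 6.69% in the other CLP libraries and 7.02% to 10.4% in the MEP libraries. Results are therefore also given without pool 1 where that changes a call or the direction. Levels are given in CPM, counts relative to library size scaled by the trimmed mean of M-values (TMM), and each log2 difference is CLP minus MEP, so that a positive value means a higher level in CLP.

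The marker genes followed the labels. Dntt, which encodes terminal transferase, which adds bases without a template at the joints of antigen receptor genes, had 2397, 1454, 1700 and 1318 CPM in the CLP libraries of pools 1, 3, 5 and 7, against 22.0, 50.6, 18.4 and 21.1 CPM in the MEP libraries. Car1, the carbonic anhydrase of early erythroid cells, had 18.1, 105.6, 29.4 and 233.5 CPM in CLP and 3071, 1935, 2404 and 2152 CPM in MEP. Klf1, the erythroid Krüppel-like factor, had 8.71, 11.4, 1.63 and 23.4 CPM in CLP and 267.1, 161.8, 197.3 and 210.9 CPM in MEP. No CLP library overlapped an MEP library for any of the 3 genes. The log2 differences were 6.03 for Dntt (SE 0.403, edgeR quasi-likelihood adjusted p = 0.00131), -5.18 for Car1 (SE 0.802, adjusted p = 0.00959) and -4.24 for Klf1 (SE 0.448, adjusted p = 0.00356). Car1 kept its direction but not its call without pool 1 (log2 -4.24, adjusted p = 0.0738) and without pool 5 (adjusted p = 0.0705), and it was -5.93 without pool 7.

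The libraries also held transcripts of other marrow cells, mostly on the CLP side. Primary granule and granulocyte-monocyte progenitor (GMP) genes summed to 8060, 12370, 17300 and 12060 CPM in CLP and to 1703, 2375, 2599 and 2926 CPM in MEP. Plasma cell and mature B cell genes summed to 5045, 6912, 16020 and 2257 CPM in CLP and to 182.2, 167.8, 122.3 and 115 CPM in MEP. Eosinophil genes summed to 3091, 329.3, 946.5 and 3294 CPM in CLP and to 26.9, 27.7, 31.6 and 24.5 CPM in MEP. CLP pool 1 differed from the other CLP libraries in further lists. Mature neutrophil genes stood at 11820 CPM there against 520.5 to 1721 CPM in the other CLP libraries. Mast cell and basophil genes stood at 4326 against 315.7 to 419.4 CPM, and marrow stroma and endothelium genes at 962.7 against 138.7 to 158 CPM. Late red cell genes stood at 1447 against 339.4 to 618.2 CPM, with 692.6 to 955.9 CPM in MEP, and globins at 1142 against 47.3 to 239.6 CPM, with 152.6 to 306.7 CPM in MEP. Stem cell genes summed to 531.8 to 1375 CPM in CLP and 896.1 to 1483 CPM in MEP. Whether such transcripts came from cells of those types or from the progenitors themselves was not tested.

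**Figure D1:**
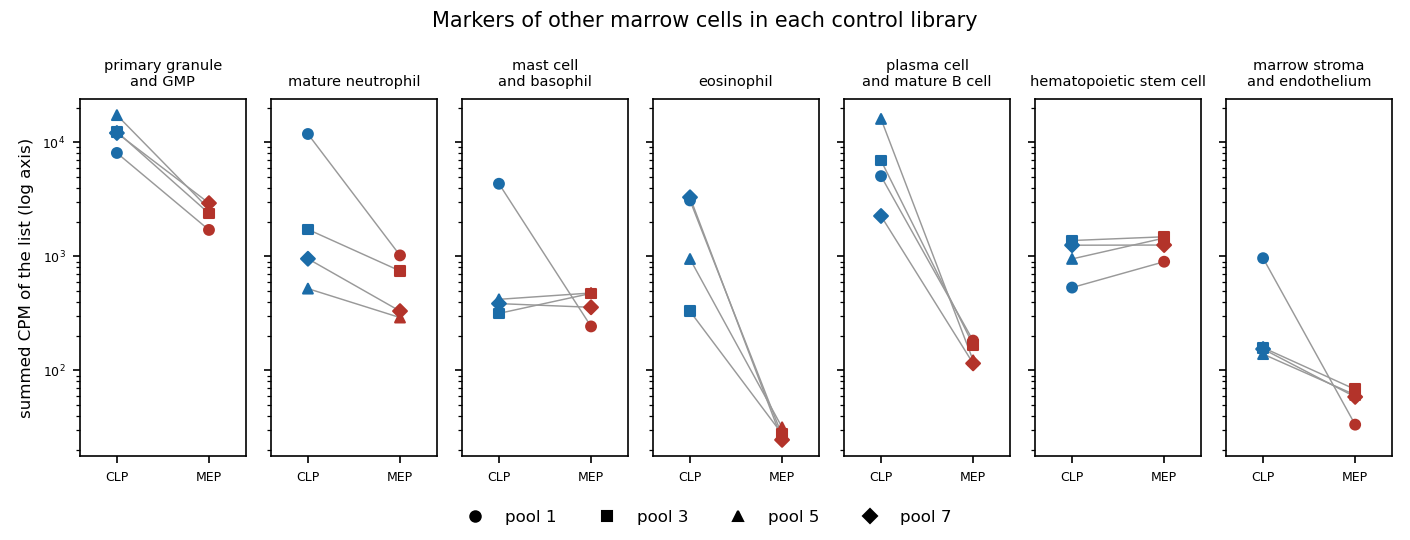
Summed level (CPM, log axis shared by all panels) of 7 marker lists of other marrow cells in each control CLP (left) and MEP (right) library; marker shapes are mouse pools and lines join libraries of the same pool. Eosinophil and plasma cell genes were above every MEP library in all 4 CLP libraries, and CLP pool 1 was the highest CLP library for neutrophil, mast cell and basophil, and stromal genes.

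Of 13413 genes tested, 2060 differed between CLP and MEP (15.4%): 1153 were higher in CLP (8.60%) and 907 higher in MEP (6.76%). Every CLP library lay above every MEP library for 1959 genes (14.6% of those tested), and every MEP library above every CLP library for 2624 genes (19.6%). The differences were often large. Of the 2060 genes, 1674 differed by more than 1 on the log2 scale and 421 by more than 3, and a difference of more than 5 was met by 80 genes higher in CLP and 14 higher in MEP. The median log2 difference of all genes tested was -0.06. Without the mouse pool as a block the count was 3430, and without pool 1 it was 4371 of 13588 genes (32.2%; 2235 higher in CLP and 2136 in MEP). It was 658 of 12412 genes without pool 3 (447 higher in CLP and 211 in MEP) and 465 of 13741 without pool 5 (307 and 158). Without pool 7 it was 1005 of 13841 (592 and 413). A count of list members below is therefore read against 15.4%, or by direction against 8.60% in CLP and 6.76% in MEP. Its range when each pool was left out is given beside it, and is read against the counts of those fits instead. Without pool 1, 16.45% of all genes were higher in CLP and 15.72% in MEP.

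**Figure D2:**
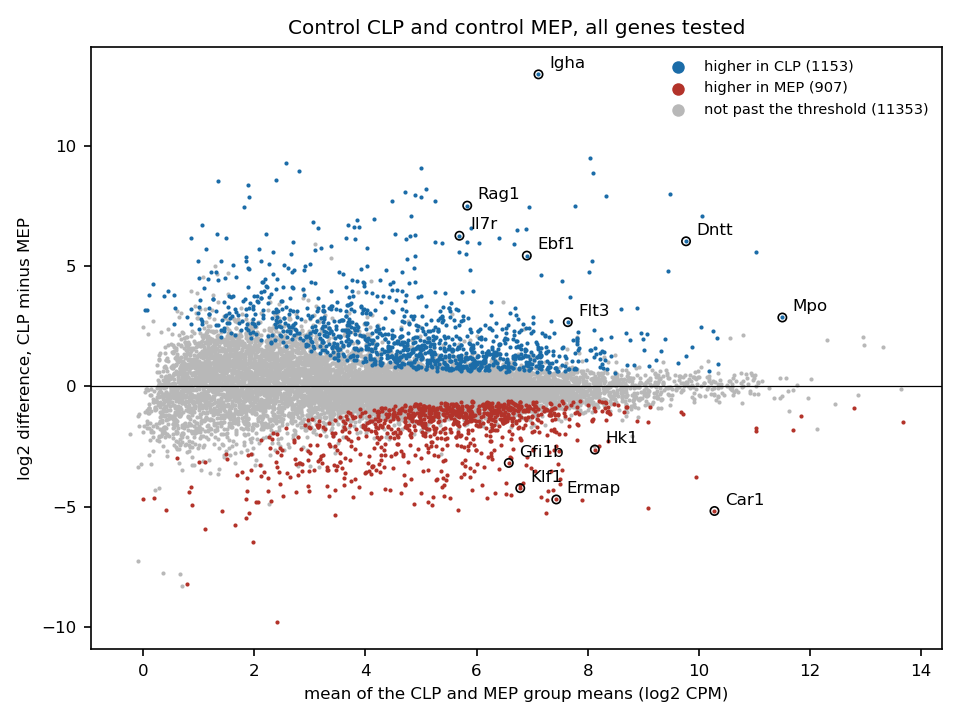
Log2 difference, CLP minus MEP, of each of the 13413 genes tested, against the mean of the CLP and MEP group means (log2 CPM). Blue points are the 1153 genes higher in CLP, red points the 907 higher in MEP and grey points the rest; circled genes are named in the text. Differences above 5 were more frequent on the CLP side (80 genes) than on the MEP side (14 genes).

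The recombination machinery and the surrogate and signalling parts of the pre-B cell receptor separated CLP from MEP most widely of the lymphoid lists. Of 22 genes tested 16 were higher in CLP and 0 in MEP (median log2 5.14; 14 to 18 and 0 to 1 when each pool was left out). Rag1, a subunit of the recombinase that cuts at antigen receptor segments, had 75.7, 91.0, 124 and 161.5 CPM in the CLP libraries of pools 1, 3, 5 and 7, against 0.238, 2.18, 0.284 and 0.386 CPM in MEP (log2 7.51, SE 0.670, adjusted p = 0.00254). The CLP libraries lay far above all MEP libraries, and MEP pool 3, the highest of its group, was also the highest MEP library for Dntt. Rag2, the other recombinase subunit, averaged 25.5 ± 12.3 CPM in CLP and 1.58 ± 1.10 CPM in MEP (SD, n = 4 each; log2 3.98, adjusted p = 0.00643). Igll1 and Vpreb1 encode the surrogate light chain. Igll1 had 30.2, 110.9, 244.8 and 283 CPM in CLP against 1.43, 3.27, 1.14 and 1.64 CPM in MEP (log2 6.16, adjusted p = 0.00356), and CLP pool 1 was the lowest CLP library. Vpreb1, whose reads may be shared with the near-identical Vpreb2, averaged 129.9 ± 61.6 CPM in CLP and 2.14 ± 1.49 CPM in MEP (log2 5.94, adjusted p = 0.00342). Cd79a, the signalling chain of the B cell receptor, had 85.5, 148.3, 277.4 and 327.3 CPM in CLP against 1.82, 2.83, 1.70 and 1.95 CPM in MEP (log2 6.50, SE 0.441, adjusted p = 0.00131). Blk, a SRC family kinase of B lineage cells, averaged 52.2 ± 15.6 CPM in CLP and 0.20 ± 0.16 CPM in MEP (log2 8.10, adjusted p = 0.00131). The levels of Rag1, Rag2, Igll1, Cd79a and Pax5 were lowest in CLP pool 1, while those of Dntt were highest there. All these calls held when each pool was left out in turn; Igll1 was 6.83 without pool 1, and without pool 3 Rag1 was 8.61, Vpreb1 6.68 and Blk 8.85. Plasma cell and mature B cell transcripts were also higher in CLP libraries, and their part in these differences was not tested.

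Lymphoid transcription factors were higher in CLP for the B lineage regulators, while others had like levels in both populations. Of 30 tested 16 were higher in CLP and 0 in MEP (median log2 1.70; 9 to 19 and 0 to 4 when each pool was left out). Ebf1, the early B cell factor, had 282.8, 146.4, 256.2 and 250.9 CPM in CLP, against 4.12, 6.75, 5.39 and 5.06 CPM in MEP (log2 5.43, SE 0.330, adjusted p = 0.00131). The groups were separated by more than an order of magnitude in every pool. Pax5, which commits cells to the B lineage, had 47.6, 69.2, 140.3 and 191.9 CPM in CLP against 0.872, 3.48, 0.851 and 1.69 CPM in MEP (log2 5.99, adjusted p = 0.00282; 6.67 without pool 3). Foxo1, an activator of the recombinase genes, averaged 91.5 ± 25.3 CPM in CLP and 13.8 ± 3.39 CPM in MEP (log2 2.71, adjusted p = 0.00342). Notch1, the receptor that directs T lineage fate, had 140.4, 168.8, 125.6 and 123.3 CPM in CLP against 16.3, 30.5, 18.0 and 27.8 CPM in MEP (log2 2.63, SE 0.216, adjusted p = 0.00219). Mef2c, a factor of lymphoid and myeloid choice, averaged 223.3 ± 76.9 CPM in CLP and 81.4 ± 20.0 CPM in MEP (log2 1.43, adjusted p = 0.0310), a call lost without pool 3, 5 or 7 (adjusted p = 0.0719, 0.0891 and 0.108). Ikzf1, which encodes Ikaros, stood at 397.9 ± 52.5 CPM in CLP and 432.2 ± 21.3 CPM in MEP (log2 -0.13, adjusted p = 0.594). Bcl11a stood at 180.6 ± 40.1 and 200 ± 10.3 CPM (log2 -0.17, adjusted p = 0.517; -0.27, adjusted p = 0.0450 without pool 1). For both genes the CLP and MEP libraries overlapped.

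Cytokine receptors were more often higher in CLP. Of 33 receptor genes tested 16 were higher in CLP (48.5%, against 8.60% of all genes). In MEP 3 were higher (9.09%), near the share of all genes (6.76%). The median log2 was 1.10, and the counts were 7 to 21 and 2 to 5 when each pool was left out. Il7r, the interleukin-7 receptor chain that early lymphoid cells need, had 97.2, 83.4, 101.2 and 125.9 CPM in CLP, against 1.27, 2.94, 0.709 and 0.892 CPM in MEP (log2 6.26, SE 0.471, adjusted p = 0.00170; 6.86 without pool 3). Flt3, the receptor of FLT3 ligand, had 247.6, 489.6, 344.3 and 298.7 CPM in CLP against 35.8, 65.5, 52.5 and 62.4 CPM in MEP (log2 2.67, SE 0.182, adjusted p = 0.00131). Both genes were higher in CLP in 4 of 4 pools with no overlap. Il10ra, a chain of the interleukin-10 receptor, averaged 47.7 ± 11.2 CPM in CLP and 5.35 ± 1.32 CPM in MEP (log2 3.14, adjusted p = 0.00326). Ccr9, a chemokine receptor of thymus-seeding progenitors, averaged 24.0 ± 20.7 and 3.72 ± 0.520 CPM (log2 2.44, adjusted p = 0.0236). CLP pool 1 set the upper end of Ccr9 at 54.6 CPM, against 10.4 to 17.7 CPM in the other CLP libraries, and the call was lost without pool 3 or 5 (adjusted p = 0.107 and 0.0886).

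The 3 receptors higher in MEP were those of erythropoietin, stem cell factor and interleukin-33. Epor, the erythropoietin receptor on which red cell progenitors depend, had 3.35, 7.05, 3.26 and 9.55 CPM in CLP, against 156.5, 95.8, 99.0 and 109.9 CPM in MEP (log2 -4.30, SE 0.385, adjusted p = 0.00254). Il1rl1, the interleukin-33 receptor, averaged 9.59 ± 5.37 CPM in CLP and 65.8 ± 4.63 CPM in MEP (log2 -2.88, adjusted p = 0.00427). Kit, the receptor of stem cell factor, had 62.7, 211, 166.4 and 174.5 CPM in CLP against 353.5, 430.3, 398 and 361 CPM in MEP (log2 -1.45, SE 0.285, adjusted p = 0.0200), and its call was lost without pool 3 or 5 (adjusted p = 0.0678 and 0.105). Every MEP library was above every CLP library for these 3 genes.

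Surface antigens of early lymphoid cells and dendritic cell genes were largely on the CLP side. Of 24 adhesion and surface antigen genes tested 15 were higher in CLP and 0 in MEP (median log2 1.24; 5 to 20 and 0 to 1 when each pool was left out). Ly6d, which marks B lineage commitment within the CLP, had 1646, 106.9, 228.5 and 127.6 CPM in CLP, against 0.634, 0.762, 0.142 and 0.241 CPM in MEP (log2 9.51, adjusted p = 0.00172; 8.68 without pool 1 and 10.27 without pool 3). CLP pool 1 was far above the other CLP libraries, and these were still far above every MEP library. Cnn3, an actin-binding calponin, averaged 201.3 ± 27.2 CPM in CLP and 37.0 ± 5.66 CPM in MEP (log2 2.44, adjusted p = 0.00221). The tetraspanin Cd53 averaged 145.5 ± 21.6 and 29.5 ± 9.79 CPM (log2 2.37, adjusted p = 0.00233) in CLP and MEP. Ptprc, the pan-leukocyte antigen CD45, averaged 269.5 ± 35.3 CPM in CLP and 121.6 ± 35.6 CPM in MEP (log2 1.19, adjusted p = 0.0242; not called without pool 3, 5 or 7, at 0.0632, 0.111 and 0.0872). Cd27, a TNF receptor family member, stood at 46.7 ± 27.0 and 23.9 ± 7.87 CPM (log2 0.77, adjusted p = 0.115; 1.11, adjusted p = 0.000172 without pool 1). The integrin chain Itgb7 stood at 53.5 ± 36.1 and 42.7 ± 8.93 CPM (log2 0.10, adjusted p = 0.899; -0.33 without pool 1 and -0.05 without pool 5).

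Of 20 dendritic cell and MHC class II genes tested, 13 were higher in CLP and 1 in MEP (median log2 1.88; 3 to 15 and 1 to 1 when each pool was left out). H2-Ob, a chain of the class II chaperone H2-O, averaged 126.9 ± 22.8 CPM in CLP and 24.6 ± 9.59 CPM in MEP (log2 2.44, adjusted p = 0.00447). Ly6c2, a surface antigen shared by monocytes, GMP and plasmacytoid dendritic cells, averaged 356.4 ± 155.1 and 16.0 ± 4.36 CPM (log2 4.39, adjusted p = 0.00209). Siglech, a receptor of plasmacytoid dendritic cells, had 159.2, 21.8, 22.9 and 6.95 CPM in CLP against 0.952, 0.762, 1.14 and 0.434 CPM in MEP (log2 5.29, adjusted p = 0.00476; 4.41 without pool 1). CLP pool 1 was again the highest. Cd74, the class II invariant chain, had 160.5, 435, 613.6 and 254.4 CPM in CLP against 75.7, 121.3, 61.4 and 77.9 CPM in MEP (log2 1.97, adjusted p = 0.0167), and its adjusted p was 0.0826, 0.0701, 0.0508 and 0.0528 without pools 1, 3, 5 and 7. H2-Aa, a class II chain, averaged 148.4 ± 99.1 and 31.8 ± 6.33 CPM in CLP and MEP (log2 1.93, adjusted p = 0.0414; 0.135, 0.130 and 0.0994 without pools 3, 5 and 7), with groups that touched. Ciita, the class II transactivator, stood at 10.5 ± 7.33 and 3.52 ± 1.58 CPM (log2 1.44, adjusted p = 0.162; 0.83 without pool 1). Zbtb46, a transcription factor known from conventional dendritic cells and from erythroid progenitors, went the other way, at 5.88 ± 1.11 CPM in CLP and 31.2 ± 7.17 CPM in MEP (log2 -2.35, adjusted p = 0.00429).

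Of 12 T cell and innate lymphoid genes tested 4 were higher in CLP and 0 in MEP (median log2 1.51; 2 to 4 and 0 when each pool was left out; median 0.64 without pool 1). Lck, the kinase of T cell receptor signalling, averaged 49.7 ± 14.6 CPM in CLP and 3.63 ± 1.85 CPM in MEP (log2 3.78, adjusted p = 0.00356). Nkg7, a granule membrane protein of cytotoxic cells that is also on the primary granule list, averaged 145.8 ± 29.7 and 48.5 ± 18.2 CPM (log2 1.65, adjusted p = 0.00470). Cd247, the CD3 zeta chain, averaged 9.48 ± 4.58 and 1.06 ± 0.342 CPM (log2 3.08, adjusted p = 0.0158; not called without pool 3, 5 or 7, at 0.0629, 0.0891 and 0.0584).

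**Figure D3:**
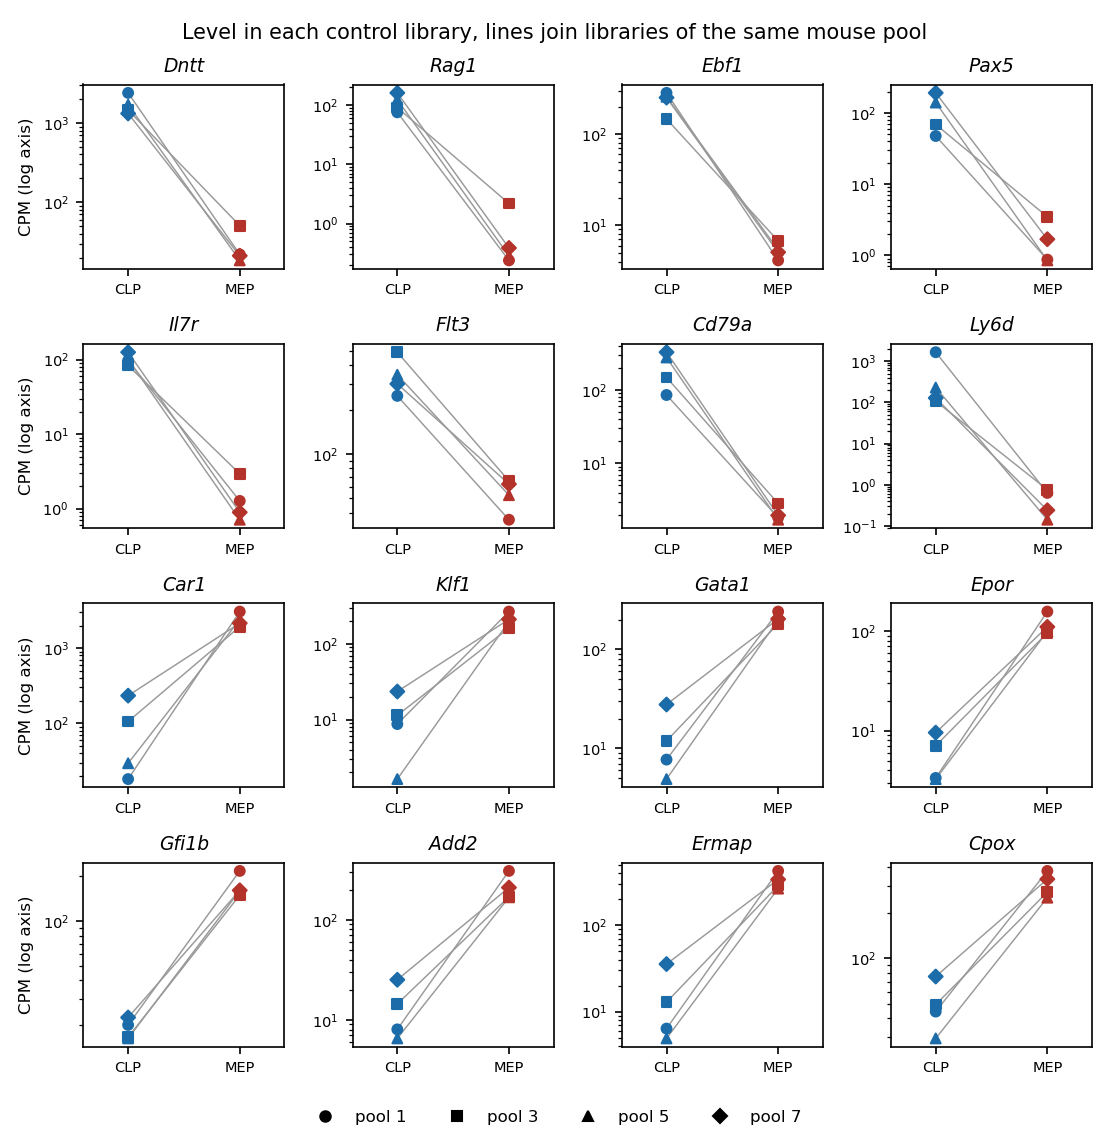
Level (CPM, log axis, each panel with its own range) of 16 genes in each control CLP (left, blue) and MEP (right, red) library; marker shapes are mouse pools and lines join libraries of the same pool. The 8 genes of the upper rows were higher in CLP and the 8 of the lower rows higher in MEP in 4 of 4 pools; CLP libraries spread most for Ly6d, Car1 and Klf1.

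The erythroid and megakaryocytic transcription factors were higher in MEP for the core erythroid regulators. Of 29 tested 1 was higher in CLP and 14 in MEP (median log2 -0.83; 0 to 6 and 3 to 17 when each pool was left out). Gata1, the master regulator of red cell and megakaryocyte genes, had 7.71, 11.9, 4.90 and 27.8 CPM in CLP, against 241.6, 182.1, 199 and 203.8 CPM in MEP (log2 -4.10, SE 0.410, adjusted p = 0.00326). Zfpm1, its cofactor FOG1, had 5.03, 34.7, 21.2 and 69.5 CPM in CLP against 324, 299.5, 250.3 and 292.3 CPM in MEP (log2 -3.53, adjusted p = 0.0135). Tal1, a helix-loop-helix partner of GATA1, had 4.36, 33.6, 18.0 and 52.1 CPM in CLP against 219.2, 202.8, 200.7 and 211.7 CPM in MEP (log2 -3.26, adjusted p = 0.0143). The MEP libraries were tightly grouped for all 3, while CLP pool 7 was the highest CLP library for each. Without pool 1 the differences were -2.79 for Zfpm1 and -2.50 for Tal1, and both calls were lost without pool 3 (adjusted p = 0.0593 and 0.0540) and without pool 5 (0.0904 and 0.0943). Gfi1b, a repressor needed for red cells and platelets, had 20.1, 16.6, 16.3 and 22.6 CPM in CLP against 217.7, 149.8, 160.6 and 161.3 CPM in MEP (log2 -3.19, SE 0.188, adjusted p = 0.00131). Gata2, the GATA factor of stem, mast and early erythroid cells, had 116.9, 33.0, 16.3 and 42.5 CPM in CLP against 198.9, 361.4, 328.3 and 238.9 CPM in MEP (log2 -2.66, adjusted p = 0.0257; -3.26 without pool 1; 0.119, 0.109 and 0.0868 without pools 3, 5 and 7). Nfe2, a regulator of platelet and globin genes, averaged 79.7 ± 10.9 CPM in CLP and 142.9 ± 24.1 CPM in MEP (log2 -0.83, adjusted p = 0.0272; 0.163, 0.15 and 0.12 without pools 3, 5 and 7). The gene of this list on the CLP side was E2f2, an E2F factor of the cell cycle, at 87.7 ± 17.2 CPM in CLP and 32.8 ± 8.45 CPM in MEP (log2 1.41, adjusted p = 0.00620; 0.0575 without pool 5).

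The red cell membrane skeleton and erythroid enzymes were higher in MEP almost throughout. Of 34 genes tested 0 were higher in CLP and 30 in MEP (median log2 -3.46; 0 and 18 to 28 when each pool was left out). Ermap, an erythroid membrane protein, had 6.37, 12.9, 4.90 and 35.6 CPM in CLP, against 427.4, 289.1, 266.5 and 340.6 CPM in MEP (log2 -4.71, SE 0.500, adjusted p = 0.00356). Ank1, the ankyrin that ties the membrane to its skeleton, had 3.02, 9.48, 0 and 26.9 CPM in CLP against 251.1, 162.4, 127.8 and 204.1 CPM in MEP (log2 -4.52, adjusted p = 0.00753; -3.82 without pool 1 and -5.25 without pool 7). The CLP library of pool 7 was the highest of its group in both, and every MEP library was above it. Add2, beta adducin, averaged 13.6 ± 8.48 CPM in CLP and 213.8 ± 65.6 CPM in MEP (log2 -4.03, adjusted p = 0.00328). Car2, a further carbonic anhydrase, averaged 157.2 ± 104.9 and 1820 ± 246.6 CPM (log2 -3.76, adjusted p = 0.00454) in CLP and MEP.

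Heme synthesis and iron genes were mostly on the MEP side. Of 29 tested 16 were higher in MEP (55.2%, against 6.76% of all genes). In CLP 3 were higher (10.3%), near the share of all genes (8.60%). A negative difference was met by 24 of the 29. The median log2 was -1.10, and the counts in CLP and MEP were 0 to 4 and 8 to 20 when each pool was left out. Cpox, the coproporphyrinogen oxidase of the heme pathway, had 44.2, 49.3, 29.4 and 75.5 CPM in CLP, against 378.1, 273.8, 251.3 and 333.8 CPM in MEP (log2 -2.68, SE 0.228, adjusted p = 0.00233). Blvrb, biliverdin reductase B, averaged 21.6 ± 12.0 CPM in CLP and 229.6 ± 60.8 CPM in MEP (log2 -3.41, adjusted p = 0.00304). Slc40a1, the iron exporter ferroportin, averaged 20.0 ± 2.63 and 84.5 ± 17.6 CPM (log2 -2.05, adjusted p = 0.00304). The enzyme that starts the pathway did not follow. Alas2, its erythroid form, had 9.72, 0.771, 0 and 2.61 CPM in CLP and 3.81, 2.50, 2.55 and 1.86 CPM in MEP (log2 -0.24, adjusted p = 0.862; -1.07 without pool 1 and 0.40 without pool 3). Alas1, its housekeeping form, had 41.9, 188.1, 235 and 193.6 CPM in CLP and 33.5, 37.3, 35.7 and 39.1 CPM in MEP (log2 1.95, adjusted p = 0.0252; 0.104, 0.141 and 0.0837 without pools 3, 5 and 7). Alas2 was low in both populations, with overlapping libraries, and Alas1 was higher in every CLP library than in any MEP library. Control GMP libraries had 601.9 to 768.9 CPM of Alas1 in a joint scaling, and the part of GMP transcripts in its CLP level was not tested. Hmox2, the constitutive heme oxygenase, averaged 99.4 ± 15.0 and 43.1 ± 5.96 CPM (log2 1.20, adjusted p = 0.0128; 0.0522 and 0.0937 without pools 3 and 5). Slc25a37, the mitochondrial iron importer mitoferrin, averaged 109.1 ± 11.0 and 64.3 ± 9.13 CPM (log2 0.76, adjusted p = 0.0352; 0.0739, 0.183 and 0.118 without pools 3, 5 and 7) in CLP and MEP. Tfrc, the transferrin receptor, stood at 360.8 ± 136.8 CPM in CLP and 425.6 ± 51.8 CPM in MEP (log2 -0.30, adjusted p = 0.303; -0.43, adjusted p = 0.00451 without pool 1).

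No globin gene passed the test. Of 4 tested 0 were called in either direction, also when each pool was left out (median log2 -0.17). Hba-a1, an alpha globin gene whose reads may be shared with its near-identical copy, had 501, 16.3, 14.7 and 72.9 CPM in CLP and 146.2, 66.1, 57.4 and 65.9 CPM in MEP (log2 -0.40, adjusted p = 0.706; -1.14 without pool 1 and 0.24 without pool 3). Hbb-bt, a beta globin gene, had 110.9, 8.71, 6.53 and 23.4 CPM in CLP and 43.5, 29.4, 25.7 and 21 CPM in MEP (log2 -0.37, adjusted p = 0.682; -1.10 without pool 1 and 0.20 without pool 3). CLP pool 1 was the highest library for both, so the CLP means exceeded the MEP means although the fitted log2 differences were negative. Among 13 genes of late red cells, 0 were higher in CLP and 4 in MEP (0 to 1 and 1 to 4 when each pool was left out). Among these the exonuclease gene Isg20 averaged 7.54 ± 3.33 CPM in CLP and 40.6 ± 6.26 CPM in MEP (log2 -2.41, adjusted p = 0.00353).

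Calls among megakaryocyte and platelet genes were not far from the shares of all genes. Of 24 tested 1 was higher in CLP (4.17%, against 8.60% of all genes) and 2 in MEP (8.33%, against 6.76%). The median log2 was -0.59, and the counts were 0 to 1 and 0 to 4 when each pool was left out. Gp5, a subunit of the platelet receptor for von Willebrand factor, had 0, 4.63, 0 and 10.4 CPM in CLP, against 32.0, 32.1, 33.2 and 27.6 CPM in MEP (log2 -3.32, adjusted p = 0.0479; -2.54 without pool 1 and -4.29 without pool 7; 0.146, 0.166 and 0.0546 without pools 3, 5 and 7). Gp1ba, another subunit, was seen in CLP pool 3 alone among the CLP libraries (23 counts, 2.54 CPM) and had 7.53, 10.7, 7.23 and 6.99 CPM in MEP (log2 -3.72, adjusted p = 0.0451; -2.60 without pool 1 and -9.33 without pool 3; 0.0895, 0.15 and 0.109 without pools 3, 5 and 7). F13a1, the coagulation factor XIII subunit that monocytes also make, was the gene higher in CLP, at 134.7 ± 46.4 CPM in CLP and 18.8 ± 10.6 CPM in MEP (log2 2.96, adjusted p = 0.0135; 2.40 without pool 1; 0.0691 and 0.0774 without pools 3 and 5). Itga2b, the integrin of platelets, stood at 70.6 ± 36.0 and 180.1 ± 57.9 CPM (log2 -1.39, adjusted p = 0.0760) with no overlap between libraries. Pf4, platelet factor 4, had 9.05, 49.9, 14.7 and 99.8 CPM in CLP and 41.9, 48.2, 47.0 and 21.1 CPM in MEP (log2 -0.29, adjusted p = 0.807; 0.62 without pool 1 and -1.16 without pool 7). Vwf stood at 21.1 ± 20.3 and 37.7 ± 7.54 CPM (log2 -1.17, adjusted p = 0.231; -0.47 without pool 1 and -1.92 without pool 7). The CLP libraries ran both below and above the MEP libraries for Pf4 and Vwf. Gp9 was at 2.75 ± 1.89 CPM in CLP and 8.10 ± 2.41 CPM in MEP (log2 -1.45, adjusted p = 0.164; -1.51, adjusted p = 0.0492 without pool 1).

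**Figure D4:**
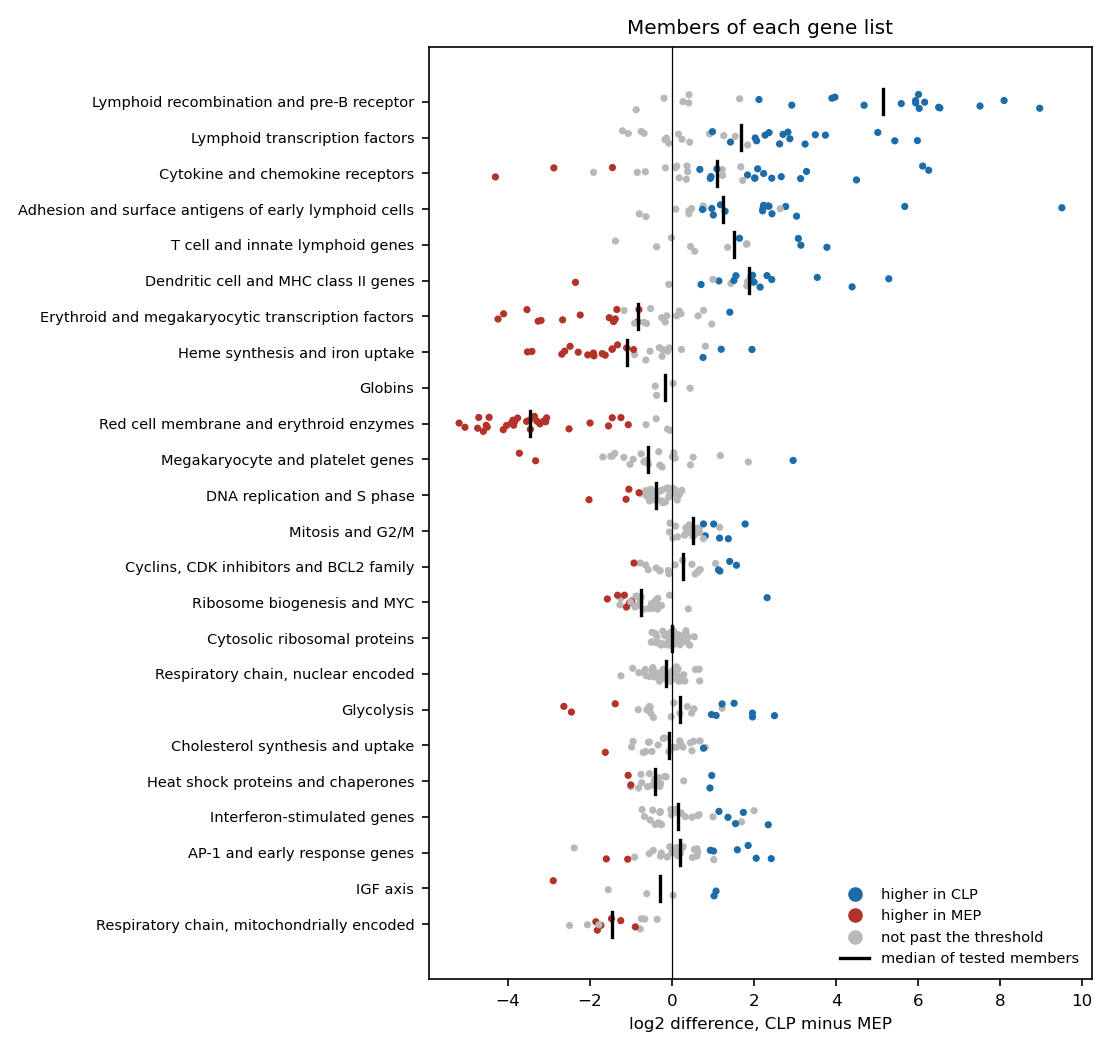
Log2 difference, CLP minus MEP, of each tested member of 24 gene lists; blue points were higher in CLP, red points higher in MEP and grey points did not pass, and black bars are the list medians. The median was 5.14 for the recombination and pre-B receptor genes and -3.46 for the red cell membrane genes and erythroid enzymes, while ribosomal protein genes lay around 0.

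Promoter sequences are shown for 10 genes called in this comparison, to let the reader see which motifs of the lineage factors stand next to their start sites. They were picked after the values were known. Each is the 120 bases before the RefSeq start or the GENCODE gene start, whichever lies further upstream, 5′ to 3′ on the gene's strand. The sequences are from RefSeq (GRCm38.p6). For Rag1, Epor, Cpox, Slc45a3 and Aldh1a1 the stretch ends short of the GENCODE gene start. Capitals mark matches, on either strand, to a GATA motif (AGATAA or TGATAA), a KLF motif (CCNCNCCC), the palindromic EBF motif or an E-box (CAGCTG), and overlapping matches run together. Dntt, Rag1 and Cd79a were higher in CLP, and Klf1, Epor, Gfi1b, Ermap, Cpox, Slc45a3 and Aldh1a1 higher in MEP.
Dntt, chr19:41029155-41029274, plus strand: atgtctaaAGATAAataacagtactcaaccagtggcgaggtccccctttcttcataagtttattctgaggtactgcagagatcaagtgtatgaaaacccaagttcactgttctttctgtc
Rag1, chr2:101649533-101649652, minus strand: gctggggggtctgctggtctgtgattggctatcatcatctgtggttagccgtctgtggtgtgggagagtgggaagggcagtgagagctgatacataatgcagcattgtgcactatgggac
Cd79a, chr7:24897261-24897380, plus strand: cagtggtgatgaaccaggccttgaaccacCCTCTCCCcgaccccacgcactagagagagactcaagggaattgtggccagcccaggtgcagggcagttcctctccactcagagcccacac
Klf1, chr8:84901808-84901927, plus strand: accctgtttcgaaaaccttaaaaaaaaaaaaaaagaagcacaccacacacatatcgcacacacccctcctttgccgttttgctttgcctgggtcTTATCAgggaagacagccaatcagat
Epor, chr9:21963577-21963696, minus strand: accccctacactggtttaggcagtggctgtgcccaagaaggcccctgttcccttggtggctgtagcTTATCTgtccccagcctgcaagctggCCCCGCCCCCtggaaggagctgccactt
Gfi1b, chr2:28621983-28622102, minus strand: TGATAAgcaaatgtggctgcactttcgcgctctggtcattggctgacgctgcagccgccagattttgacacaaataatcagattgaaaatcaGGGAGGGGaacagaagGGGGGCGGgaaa
Cpox, chr16:58670088-58670207, plus strand: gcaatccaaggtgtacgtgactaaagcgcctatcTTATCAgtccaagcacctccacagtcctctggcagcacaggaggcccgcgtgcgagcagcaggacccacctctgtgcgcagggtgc
Ermap, chr4:119190012-119190131, minus strand: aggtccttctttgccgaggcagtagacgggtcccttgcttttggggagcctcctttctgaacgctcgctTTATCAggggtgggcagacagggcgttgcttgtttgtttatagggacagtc
Slc45a3, chr1:131962795-131962914, plus strand: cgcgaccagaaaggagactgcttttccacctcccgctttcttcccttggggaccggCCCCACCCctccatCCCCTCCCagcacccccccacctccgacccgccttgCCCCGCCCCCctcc
Aldh1a1, chr19:20492463-20492582, plus strand: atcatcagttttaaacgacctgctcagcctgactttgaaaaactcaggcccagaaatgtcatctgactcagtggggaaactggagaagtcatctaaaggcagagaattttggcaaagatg

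A GATA match stood in the shown stretch of Dntt, Klf1, Epor, Gfi1b, Ermap and Cpox, a KLF match in those of Cd79a, Epor, Gfi1b and Slc45a3, and none of the 4 motifs in those of Rag1 and Aldh1a1. Over windows of 250 bases before to 50 after each start, the GATA motif was in 12.5% of 1157 promoters of genes higher in CLP, 14.0% of 908 promoters of genes higher in MEP, 10.4% of 9725 promoters of genes that did not pass, and 18.6% of all 32851 promoters of the table. The KLF motif was in 66.6%, 71.4%, 66.2% and 49.5% of these sets. The EBF motif was in 1.73%, 1.98%, 0.771% and 0.904%, and the E-box in 18.5%, 15.5%, 14.0% and 16.3%. The shares of CLP and MEP genes were close to each other for the GATA, KLF and EBF motifs. A match is a description of the letters and no measure of binding.

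Calls among cell cycle genes went the same way within each list. Of all genes tested 8.60% were higher in CLP and 6.76% in MEP. Of 36 DNA replication and S phase genes 0 were higher in CLP and 4 in MEP (11.1%, median log2 -0.39). A negative difference was met by 29 of the 36. Of 30 mitosis and G2/M genes 6 were higher in CLP and 0 in MEP (20%, median 0.52). A positive difference was met by 28 of the 30. Without pool 1, where 32.2% of all genes were called, the counts in CLP and MEP were 0 and 15 for S phase (median -0.23) and 29 and 0 for mitosis (median 0.93). Without pool 3, 5 or 7 each list had 1 or 2 calls. Ccne1, the cyclin E of S phase entry, had 35.2, 21.2, 16.3 and 45.2 CPM in CLP, against 148.4, 98.3, 94.7 and 117.4 CPM in MEP (log2 -2.02, SE 0.229, adjusted p = 0.00394). Cdc6, which loads the replicative helicase, averaged 70.4 ± 7.99 and 144.2 ± 11.7 CPM (log2 -1.05, adjusted p = 0.0109; 0.0800 and 0.0667 without pools 3 and 5). Chaf1b, a histone chaperone of replication, averaged 56.4 ± 11.9 and 96.1 ± 4.11 CPM (log2 -0.80, adjusted p = 0.0379; 0.153, 0.154 and 0.0755 without pools 3, 5 and 7) in CLP and MEP. Mcm5, a helicase subunit, stood at 314.6 ± 102.8 and 508.9 ± 30.5 CPM (log2 -0.76, adjusted p = 0.0970; -0.43, adjusted p = 0.00196 without pool 1). Pcna stood at 570 ± 96.1 and 495.4 ± 23.5 CPM (log2 0.19, adjusted p = 0.434) and Rrm2 at 222.5 ± 85.9 and 220.5 ± 21.6 CPM (log2 -0.07, adjusted p = 0.878; 0.27 without pool 1). Kif23, a kinesin of cell division, had 157.8, 197.7, 181.1 and 202.3 CPM in CLP against 68.0, 48.1, 43.1 and 56.8 CPM in MEP (log2 1.79, SE 0.203, adjusted p = 0.00394). Ube2c, the ubiquitin-conjugating enzyme of the anaphase complex, averaged 218.1 ± 32.2 CPM in CLP and 87.1 ± 30.5 CPM in MEP (log2 1.38, adjusted p = 0.0134; 0.0691 and 0.102 without pools 3 and 5). Cenpf, a kinetochore protein, averaged 153.9 ± 35.3 and 69.0 ± 17.1 CPM (log2 1.16, adjusted p = 0.0130; 0.0719, 0.102 and 0.0519 without pools 3, 5 and 7). Cdk1 averaged 178.2 ± 23.1 and 102.3 ± 21.5 CPM (log2 0.82, adjusted p = 0.0272; 0.123, 0.160 and 0.0888 without pools 3, 5 and 7). Mki67 stood at 886.2 ± 207.3 CPM in CLP and 641.7 ± 103.1 CPM in MEP (log2 0.45, adjusted p = 0.119; 0.58, adjusted p = 0.000421 without pool 1). Ccnb1 stood at 168.7 ± 71.3 and 121.9 ± 29.9 CPM (log2 0.40, adjusted p = 0.474; 0.91, adjusted p = 2.17e-05 without pool 1).

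Among 21 cyclin, CDK inhibitor and BCL2 family genes, 4 were higher in CLP and 1 in MEP (median log2 0.26; 0 to 8 and 0 to 3 when each pool was left out). Ccnd3, the D cyclin on which early B cell expansion depends, had 394.4, 308.4, 546.7 and 601.7 CPM in CLP, against 176.7, 171.2, 162.5 and 161.9 CPM in MEP (log2 1.41, SE 0.224, adjusted p = 0.0103; 0.0879 without pool 5). Cdkn1a, the CDK inhibitor p21, averaged 73.3 ± 9.81 and 32.6 ± 2.48 CPM (log2 1.17, adjusted p = 0.00931; 0.0587 and 0.0638 without pools 3 and 5) in CLP and MEP. Bcl2l1, the survival factor BCL-XL that is needed in late red cells, was on the CLP side at 24.6 ± 6.56 CPM in CLP and 10.8 ± 0.489 CPM in MEP (log2 1.14, adjusted p = 0.0292; 0.0873, 0.15 and 0.114 without pools 3, 5 and 7). Bbc3, the cell death inducer PUMA, was on the MEP side at 13.5 ± 3.53 and 25.5 ± 5.38 CPM (log2 -0.92, adjusted p = 0.0352; 0.152, 0.142 and 0.122 without pools 3, 5 and 7). Bcl2 stood at 103.7 ± 40.7 and 49.5 ± 16.8 CPM (log2 1.07, adjusted p = 0.115; 0.69, adjusted p = 0.00528 without pool 1). Ccnd2 stood at 184.1 ± 27.4 and 125.2 ± 22.6 CPM (log2 0.57, adjusted p = 0.125; 0.39, adjusted p = 0.0175 without pool 1) and Cdk6 at 489.4 ± 56.1 and 598 ± 90.2 CPM (log2 -0.28, adjusted p = 0.267).

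Of 23 glycolysis genes tested 7 were higher in CLP and 3 in MEP (median log2 0.20; 3 to 12 and 0 to 6 when each pool was left out). Hexokinase is the enzyme that traps glucose in the cell, and its genes Hk1 and Hk3 went opposite ways. Hk1 had 22.1, 116.9, 86.5 and 125.9 CPM in CLP, against 502.3, 448.3, 431.7 and 504.1 CPM in MEP (log2 -2.63, SE 0.464, adjusted p = 0.0141; -2.03 without pool 1; 0.0864 without pool 5). Hk3, the myeloid form, had 85.1, 169.7, 200.7 and 136.3 CPM in CLP against 21.6, 38.3, 36.5 and 55.9 CPM in MEP (log2 1.97, SE 0.230, adjusted p = 0.00427). Neither gene overlapped between the groups, and Hk3 is also on the primary granule list. Pfkm, the muscle-type phosphofructokinase that red cells use, averaged 28.6 ± 15.0 and 145.4 ± 23.6 CPM (log2 -2.45, adjusted p = 0.0132; -1.76 without pool 1; 0.0894 without pool 5). Pfkfb2, a regulator of the same step, averaged 4.66 ± 0.669 and 11.8 ± 2.42 CPM (log2 -1.38, adjusted p = 0.0414; 0.229, 0.134 and 0.117 without pools 3, 5 and 7) in CLP and MEP. On the CLP side, Pkm, pyruvate kinase M, had 654.4, 857.2, 891 and 845.6 CPM in CLP against 131.4, 244.7, 239.3 and 236.3 CPM in MEP (log2 1.97, SE 0.170, adjusted p = 0.00233). Pgam1 averaged 334.8 ± 91.4 and 116.4 ± 30.2 CPM (log2 1.52, adjusted p = 0.00288). In the joint scaling of control progenitors, GMP libraries had 515.8 to 625.4 CPM of Hk3 and 1321 to 1652 CPM of Pkm, and the part of GMP transcripts in the CLP levels was not tested.

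Transcripts encoded by the mitochondrial genome were higher in MEP than in CLP, while nuclear genes of the same complexes were not called. The mitochondrially encoded share of all counts was 2.67%, 3.41%, 3.51% and 4.61% in CLP and 7.07%, 6.47%, 5.63% and 9.75% in MEP, with no overlap. Of the 13 protein genes, a list added after the data had been seen, 0 were higher in CLP and 6 in MEP (median log2 -1.47; 0 and 0 to 10 when each pool was left out). In the joint scaling the list summed to 29090 to 40920 CPM in CLP and 53140 to 99940 CPM in MEP. Control GMP and stem cell libraries had 30010 to 32980 and 30850 to 45320 CPM, near the CLP libraries. mt-Nd2, a subunit of complex I, had 371.9, 986.9, 1018 and 1779 CPM in CLP, against 3127, 2610, 2356 and 4399 CPM in MEP (log2 -1.73, adjusted p = 0.0217; 0.0841, 0.0932 and 0.0584 without pools 3, 5 and 7). mt-Nd1 averaged 2184 ± 564.7 and 5180 ± 1421 CPM (log2 -1.24, adjusted p = 0.0127; 0.0828, 0.0641 and 0.0653 without pools 3, 5 and 7). mt-Atp6, a subunit of ATP synthase, averaged 4931 ± 503.4 and 9314 ± 2416 CPM (log2 -0.89, adjusted p = 0.0216; 0.159, 0.105 and 0.126) in CLP and MEP. Of 40 nuclear genes of the respiratory chain 0 were called in either direction (median log2 -0.15; 1 higher in CLP and 13 in MEP without pool 1).

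Ribosome biogenesis leaned to MEP and the ribosomal proteins to neither. Of 30 ribosome biogenesis and MYC family genes tested 1 was higher in CLP and 6 in MEP (median log2 -0.76). The counts were 1 and 24 without pool 1, while 0 were higher in MEP without pool 3, 5 or 7. Bysl, a factor of small subunit assembly, averaged 28.5 ± 8.85 CPM in CLP and 81.4 ± 9.82 CPM in MEP (log2 -1.57, adjusted p = 0.0169). Polr1a, the large subunit of RNA polymerase I, averaged 60.4 ± 23.6 and 128.5 ± 18.7 CPM (log2 -1.16, adjusted p = 0.0301). Rrp9, a ribosomal RNA processing factor, averaged 44.8 ± 7.37 and 87 ± 11.3 CPM (log2 -0.98, adjusted p = 0.0266). These 3 calls were lost without pool 3, 5 or 7, at 0.0576, 0.0871 and 0.0530 for Bysl, 0.10, 0.137 and 0.0528 for Polr1a and 0.117, 0.0888 and 0.0854 for Rrp9. The gene on the CLP side was Mycl, with 36.9, 16.1, 16.3 and 15.6 CPM in CLP against 3.97, 4.90, 3.55 and 3.54 CPM in MEP (log2 2.32, adjusted p = 0.00959; 0.0629 without pool 5). Myc stood at 172.7 ± 90.2 and 262.2 ± 23.2 CPM (log2 -0.83, adjusted p = 0.204; -0.30, adjusted p = 0.0380 without pool 1). Mycn stood at 6.05 ± 3.15 and 16.7 ± 7.90 CPM (log2 -1.27, adjusted p = 0.123; -1.48, adjusted p = 0.00425 without pool 1). Of 45 ribosomal protein genes 0 were called (median log2 0.01), and their summed level was 88960 CPM in CLP pool 1 against 48610 to 58830 CPM in the other CLP libraries and 50780 to 62300 CPM in MEP.

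Calls among chaperone genes were near the shares of all genes, 8.60% higher in CLP and 6.76% in MEP. Of 23 chaperone genes 2 were higher in CLP and 2 in MEP (median log2 -0.42; 2 and 9 without pool 1, and 0 in both without pool 3, 5 or 7). The 2 on the CLP side are chaperones of the endoplasmic reticulum. Hspa5 averaged 1714 ± 290.4 and 891 ± 34.9 CPM (log2 0.93, adjusted p = 0.0151; 0.0773, 0.117 and 0.0723 without pools 3, 5 and 7). Hsp90b1 averaged 1042 ± 51.5 and 531.7 ± 47.1 CPM (log2 0.97, adjusted p = 0.0115; 0.0691, 0.101 and 0.0530) in CLP and MEP. In the joint scaling, control GMP libraries had 2067 to 2779 CPM of Hspa5 and 1289 to 1685 CPM of Hsp90b1. The part of GMP transcripts in the CLP levels was not tested. On the MEP side was Hspd1, the mitochondrial HSP60, at 546.5 ± 208.5 and 1083 ± 127.2 CPM (log2 -1.06, adjusted p = 0.0464; 0.130, 0.160 and 0.0800 without pools 3, 5 and 7). The other was Bag3 at 14.6 ± 3.42 and 28.1 ± 2.33 CPM (log2 -1.0, adjusted p = 0.0453; 0.198, 0.136 and 0.0907). Of 29 interferon-stimulated genes 5 were higher in CLP (17.2%, against 8.60% of all genes) and 0 in MEP. Their median log2 was 0.14, and the counts were 0 to 6 and 0 to 2 when each pool was left out. Ifi203 averaged 130.6 ± 28.5 and 40.7 ± 15.4 CPM (log2 1.74, adjusted p = 0.00864; 0.0535 without pool 5). Of the immunoproteasome subunits, Psmb9 averaged 122.6 ± 24.0 and 55.2 ± 8.10 CPM (log2 1.15, adjusted p = 0.0153; 0.0621, 0.0752 and 0.0723) and Psmb8 averaged 317.8 ± 113.8 and 119.4 ± 24.0 CPM (log2 1.37, adjusted p = 0.0268; 0.0876, 0.114 and 0.0681).

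Of 29 early response genes 6 were higher in CLP and 2 in MEP (median log2 0.21; 0 to 10 and 0 to 9 when each pool was left out). Dusp2, a phosphatase of MAP kinases, averaged 343.9 ± 78.9 and 113.9 ± 28.4 CPM (log2 1.6, adjusted p = 0.00901; 0.0640 without pool 5) in CLP and MEP. Dusp5, a related phosphatase, had 334.4, 97.4, 104.4 and 101.6 CPM in CLP against 19.0, 28.0, 27.9 and 26.5 CPM in MEP (log2 2.42, adjusted p = 0.0154; 0.0546, 0.0801 and 0.0516 without pools 3, 5 and 7). Klf2, a quiescence and trafficking factor of lymphocytes, had 1183, 325.1, 419.4 and 334.3 CPM in CLP against 86.6, 97.5, 126.2 and 155.5 CPM in MEP (log2 2.06, adjusted p = 0.0269; 0.0940 and 0.119 without pools 3 and 5). CLP pool 1 was the highest library for Dusp5 and Klf2. Atf3 averaged 85.9 ± 23.7 and 41.5 ± 7.14 CPM (log2 1.02, adjusted p = 0.0134; 0.0631, 0.104 and 0.0594). On the MEP side was Tnfaip3, a brake of NF-kB signalling, at 214.3 ± 77.2 and 440.7 ± 92.4 CPM (log2 -1.08, adjusted p = 0.0353; 0.171, 0.168 and 0.0596 without pools 3, 5 and 7). Egr2 was there at 4.30 ± 2.31 and 13.2 ± 1.78 CPM (log2 -1.60, adjusted p = 0.0432; 0.178, 0.165 and 0.147). Fos at 1899 ± 192.5 and 1663 ± 331.3 CPM (log2 0.21, adjusted p = 0.489) and Junb at 534.6 ± 255.2 and 456.1 ± 65.4 CPM (log2 0.12, adjusted p = 0.791; -0.18 without pool 1) did not pass. Jun at 1032 ± 236.2 and 1497 ± 267.8 CPM (log2 -0.55, adjusted p = 0.0892) and Egr1 at 433.6 ± 152.4 and 790.1 ± 157 CPM (log2 -0.91, adjusted p = 0.0814) did not pass, and each passed without pool 1 (-0.44 and -1.20, adjusted p = 0.00579 and 3.66e-06).

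In the IGF axis, the pathway that the antibody of the series acts on, 6 genes were tested, of which 2 were higher in CLP and 1 in MEP (median log2 -0.29; 0 to 2 and 1 to 3 when each pool was left out). Pappa had 1, 4, 0 and 0 counts in CLP and 2, 1, 3 and 18 counts in MEP and was too low to test, as was the ligand gene Igf1. Grb10, an imprinted adaptor that damps insulin and IGF1 receptor signalling, had 6.70, 8.27, 9.79 and 14.8 CPM in CLP, against 72.2, 63.5, 69.2 and 72.6 CPM in MEP (log2 -2.89, SE 0.246, adjusted p = 0.00233). Igfbp4, an IGF binding protein and substrate of PAPP-A, had 456.7, 450.7, 468.3 and 333.4 CPM in CLP against 111, 252.9, 254.7 and 222.6 CPM in MEP (log2 1.08, adjusted p = 0.0421; 0.121, 0.156 and 0.0791 without pools 3, 5 and 7). The groups did not overlap for either gene. Control GMP libraries had 628 to 912.9 CPM of Igfbp4 in the joint scaling, and the part of GMP transcripts in its CLP level was not tested. Irs2, a receptor substrate, averaged 31.6 ± 5.2 and 15.2 ± 2.60 CPM (log2 1.03, adjusted p = 0.0252; 0.0901, 0.132 and 0.0868) in CLP and MEP. Igf1r at 81.3 ± 10.3 and 124.7 ± 17.5 CPM (log2 -0.61, adjusted p = 0.0595) and Igf2r at 13.2 ± 6.70 and 35.7 ± 8.17 CPM (log2 -1.55, adjusted p = 0.0679) passed without pool 1 (-0.70 and -0.89, adjusted p = 0.000384 and 0.00488). Insr stood at 30.1 ± 4.78 and 29.1 ± 3.18 CPM (log2 0.03, adjusted p = 0.928; -0.06 without pool 1 or 5).

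Of 23 cholesterol synthesis and uptake genes 1 was higher in CLP and 1 in MEP (median log2 -0.07; 0 to 4 and 0 to 3 when each pool was left out). Insig1, which holds back sterol synthesis, averaged 49.6 ± 7.25 and 28.9 ± 3.03 CPM (log2 0.77, adjusted p = 0.0352; 0.121, 0.170 and 0.0855 without pools 3, 5 and 7). Lss, lanosterol synthase, averaged 9.92 ± 4.67 and 28.2 ± 2.53 CPM (log2 -1.62, adjusted p = 0.0291; 0.0817, 0.121 and 0.0758) in CLP and MEP. Sqle, squalene epoxidase, at 36.4 ± 3.48 and 52.6 ± 2.93 CPM (log2 -0.55, adjusted p = 0.0862) did not pass, and it passed without pool 1 (-0.49, adjusted p = 0.0241).

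The genes with the smallest p were a mixture of lymphoid, myeloid and unassigned genes on the CLP side and erythroid and metabolic genes on the MEP side. The 12 in each direction were taken by p among called genes that lay on their side in 4 of 4 pools. They were also required to have an Ensembl ID and no predicted or clone name. All kept their call when each pool was left out, in fits that share libraries with the fit that chose them. On the CLP side, Igha, the constant region of IgA, had 322.4, 464.6, 207.2 and 113.7 CPM in CLP and 0, 0, 0 and 1 counts in MEP, so its fitted log2 difference of 12.97 (adjusted p = 0.000365) rests on 1 MEP count (14.22 without pool 7). Ighg2b, an IgG constant region, averaged 63.5 ± 54.0 CPM in CLP and 0.0915 ± 0.0680 CPM in MEP (log2 9.07, adjusted p = 0.00131). Both are plasma cell transcripts and on the list of such markers. Myl10, a myosin light chain of precursor lymphocytes, had 71.0, 59.3, 80.0 and 91.2 CPM in CLP against 0.238, 0.762, 0.284 and 0.265 CPM in MEP (log2 7.71, SE 0.430, adjusted p = 0.00131). Emp1, an epithelial membrane protein, averaged 113.8 ± 20.1 and 4.06 ± 1.45 CPM (log2 4.84), and the ephrin receptor Epha2 36.9 ± 16.6 and 1.66 ± 0.706 CPM (log2 4.43). The dynein regulator Drc7 averaged 71.3 ± 26.8 and 4.59 ± 1.38 CPM (log2 3.90) and the band 4.1 relative Epb41l4b 95.1 ± 13.2 and 12.7 ± 3.27 CPM (log2 2.93). Gimap6, a GTPase of lymphocytes, averaged 187.5 ± 36.0 and 27.2 ± 7.33 CPM (log2 2.81), and the myeloid lectin receptor Clec12a 380.8 ± 52.1 and 29.5 ± 5.71 CPM (log2 3.70). Of the granule proteases, Prtn3 averaged 858.1 ± 319.4 and 90.0 ± 27.5 CPM (log2 3.24) and Prss57 76.4 ± 14.3 and 7.65 ± 1.13 CPM (log2 3.31). The adjusted p was 0.00131 for each of these.

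On the MEP side, Slc45a3, a solute carrier, had 2.35, 1.65, 1.63 and 1.74 CPM in CLP, against 45.8, 62.4, 66.8 and 51.2 CPM in MEP (log2 -4.89, SE 0.284, adjusted p = 0.00131). Trib2, a pseudokinase, had 6.03, 3.31, 4.90 and 5.21 CPM in CLP against 75.3, 79.3, 91.6 and 75.5 CPM in MEP (log2 -4.09, adjusted p = 0.00131). The CLP levels rest on few reads, with 7, 15, 1 and 2 counts of Slc45a3 and 18, 30, 3 and 6 counts of Trib2. The spread of these genes within CLP therefore cannot be judged. Optn, an autophagy receptor, averaged 8.25 ± 1.57 and 100.5 ± 5.21 CPM (log2 -3.64), and the tetraspanin Tspan33 12.4 ± 5.01 and 115.6 ± 28.3 CPM (log2 -3.22). Tnfaip2 averaged 34.5 ± 6.74 and 320.6 ± 53.5 CPM (log2 -3.22) and the recycling GTPase Rab4a 5.49 ± 1.34 and 48.6 ± 9.58 CPM (log2 -3.13). The lipid transfer protein Stard10 averaged 36.5 ± 4.57 and 223.4 ± 51.0 CPM (log2 -2.59) in CLP and MEP. The adjusted p of Optn, Tspan33, Tnfaip2, Rab4a and Stard10 was 0.00131. Apoe, apolipoprotein E, had 12.1, 20.3, 14.7 and 35.6 CPM in CLP against 218.6, 385.6, 440.5 and 329.7 CPM in MEP (log2 -4.08, adjusted p = 0.00161). The detoxifying and metabolic enzymes Gstm5 (10.3 ± 2.73 and 97.0 ± 13.6 CPM, log2 -3.18, adjusted p = 0.00164) and Aldh1a1, a retinaldehyde dehydrogenase (8.58 ± 3.40 and 110 ± 17.6 CPM, log2 -3.79, adjusted p = 0.00219), were also higher in MEP. So was Minpp1, an inositol phosphate phosphatase (77.2 ± 11.7 and 369.7 ± 71.8 CPM, log2 -2.25, adjusted p = 0.00219). Gfi1b, described above, is the transcription factor among them.

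Of 69 marker genes of granulocytes, mast cells, eosinophils and plasma cells that were tested, 46 were higher in CLP and 1 in MEP, and 1107 genes were higher in CLP when these were not counted. Of 21 primary granule and GMP genes 19 were higher in CLP (median log2 2.86; 13 to 21 when each pool was left out). Mpo, myeloperoxidase, had 1812, 5462, 7630 and 5573 CPM in CLP, against 319.2, 607.2, 724.2 and 1076 CPM in MEP (log2 2.86, SE 0.246, adjusted p = 0.00233). Elane, neutrophil elastase, averaged 1345 ± 564.1 and 47.0 ± 13.9 CPM (log2 4.78, adjusted p = 0.00288). Ctsg, cathepsin G, averaged 696.7 ± 315.4 and 74.9 ± 32.4 CPM (log2 3.23, adjusted p = 0.00131). Cebpa, the driver of the granulocyte lineage, stood at 55.9 ± 18.2 CPM in CLP and 31.7 ± 13.6 CPM in MEP (log2 0.92, adjusted p = 0.0683; 0.74, adjusted p = 0.0121 without pool 1). Of 12 plasma and mature B cell genes 11 were higher in CLP (median log2 6.48; 9 to 11). Ighm, the IgM heavy chain that both B cell precursors and plasma cells transcribe, had 2287, 3669, 9133 and 1372 CPM in CLP against 86.1, 73.1, 54.3 and 50.6 CPM in MEP (log2 5.59, adjusted p = 0.00304; 0.0558 without pool 1). Igkc, the kappa light chain, averaged 2118 ± 1830 and 11.9 ± 8.44 CPM (log2 7.10, adjusted p = 0.00318; 0.0563 without pool 1 and log2 6.42 without pool 5). Jchain, the joining chain of secreted IgM and IgA, averaged 640.5 ± 526.9 and 2.67 ± 3.63 CPM (log2 7.92, adjusted p = 0.00434; 8.59, 7.30 and 8.53 without pools 1, 5 and 7). Sdc1, syndecan 1, averaged 48.7 ± 23.3 and 3.87 ± 0.518 CPM (log2 3.53, adjusted p = 0.00249). Mzb1 averaged 55.2 ± 35.2 and 0.586 ± 0.354 CPM (log2 6.26, adjusted p = 0.00476; 7.13 without pool 1).

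Of 7 eosinophil genes 6 were higher in CLP and 0 in MEP (median log2 7.70; 5 to 6 when each pool was left out). Prg2, the major basic protein of eosinophil granules, had 2621, 220.6, 665.8 and 2154 CPM in CLP, against 9.99, 3.16, 2.27 and 3.26 CPM in MEP (log2 8.00, SE 0.622, adjusted p = 0.00187; 8.60 without pool 3). Epx, eosinophil peroxidase, had 146.4, 64.1, 161.5 and 610.3 CPM in CLP against 3.89, 0.435, 0 and 1.47 CPM in MEP (log2 7.46, adjusted p = 0.00394; 8.68 without pool 1 and 6.79 without pool 7). The CLP libraries of pools 1 and 7 were the highest for the list, and all 4 were above the MEP libraries. Prg3 averaged 64.0 ± 60.01 and 0.342 ± 0.314 CPM (log2 7.86, adjusted p = 0.00304; 6.68 without pool 7). Ear1, a ribonuclease with near-identical copies, averaged 68.2 ± 68.8 and 0.266 ± 0.414 CPM (log2 8.20, adjusted p = 0.00233; 9.66 without pool 1 and 7.16 without pool 7). Il5ra, the interleukin-5 receptor of the lineage, was too low to test, at 2.01, 0.551, 1.63 and 6.95 CPM in CLP and 0 to 0.338 CPM in MEP.

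Basophil and neutrophil transcripts were most abundant in CLP pool 1. Of 13 mast cell and basophil genes tested 3 were higher in CLP and 1 in MEP (median log2 2.23; 2 to 4 and 0 to 2 when each pool was left out, and 4 and 2 without pool 1). Mcpt8, a basophil protease, had 1836, 60.2, 102.8 and 67.7 CPM in CLP, against 2.62, 5.01, 8.08 and 4.75 CPM in MEP (log2 4.74, adjusted p = 0.0323; 3.73 without pool 1; 0.0901, 0.120 and 0.0837 without pools 3, 5 and 7). Prss34, another, had 1882, 82.3, 120.8 and 95.5 CPM in CLP against 2.14, 1.20, 0 and 0.0964 CPM in MEP (log2 8.88, adjusted p = 0.00266; 8.31 without pool 1 and 9.99 without pool 3). Even without pool 1 the CLP libraries lay above the MEP libraries. Hdc, histidine decarboxylase, averaged 71.1 ± 16.2 and 12.5 ± 6.43 CPM (log2 2.67, adjusted p = 0.00356), with CLP pool 1 the lowest CLP library. Cpa3, the mast cell carboxypeptidase, had 136, 30.6, 62.0 and 40.8 CPM in CLP and 16.3, 58.9, 80.3 and 64.4 CPM in MEP (log2 0.15, adjusted p = 0.894), and without pool 1 it was higher in MEP (log2 -0.69, adjusted p = 0.00346). Fcer1a, a chain of the IgE receptor, stood at 100.2, 4.19, 4.90 and 4.34 CPM in CLP and 0.238, 1.09, 2.13 and 0.193 CPM in MEP (log2 3.92, adjusted p = 0.0949; 2.46, adjusted p = 0.0247 without pool 1; 4.92 and 4.86 without pools 3 and 5). Ms4a2, another chain of it, stood at 14.0 ± 15.2 and 10.1 ± 5.45 CPM (log2 0.15, adjusted p = 0.929; -0.86 without pool 1 and 0.74 without pool 3).

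Of 16 mature neutrophil genes 7 were higher in CLP and 0 in MEP (median log2 1.86; 1 to 9 when each pool was left out, and 9 of 15 without pool 1). S100a8, an abundant calcium-binding protein of neutrophils, had 3225, 341.4, 140.3 and 199.7 CPM in CLP, against 165.1, 116.6, 50.9 and 63.5 CPM in MEP (log2 2.19, adjusted p = 0.0373; 1.59 without pool 1; 0.0966, 0.117 and 0.0889 without pools 3, 5 and 7). Its partner S100a9 averaged 1187 ± 1790 and 147.3 ± 82.1 CPM (log2 1.96, adjusted p = 0.0470; 1.39 without pool 1; 0.112, 0.121 and 0.108 without pools 3, 5 and 7). Ltf, lactoferrin, averaged 253.5 ± 341.5 and 58.6 ± 39.0 CPM (log2 1.47, adjusted p = 0.0488; 1.03 without pool 1; 0.107, 0.114 and 0.122). The spread of the CLP libraries exceeded the MEP mean for each of these 3. Wfdc21 averaged 21.4 ± 22.1 and 1.99 ± 1.14 CPM (log2 3.15, adjusted p = 0.00465; 2.82 without pool 1). Itgam, the integrin CD11b, averaged 31.1 ± 9.01 and 13.0 ± 4.35 CPM (log2 1.26, adjusted p = 0.0140; 0.0661, 0.0774 and 0.0728 without pools 3, 5 and 7). Chil3 averaged 86.1 ± 77.0 and 34.5 ± 20.3 CPM (log2 1.12, adjusted p = 0.0209; 0.0924, 0.0827 and 0.0723).

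Of 14 stem cell genes tested 1 was higher in CLP and 3 in MEP (median log2 -0.43; 0 to 3 and 0 to 5 when each pool was left out). Mllt3, a regulator of stem cell maintenance, averaged 12.6 ± 6.35 and 59.9 ± 8.46 CPM (log2 -2.33, adjusted p = 0.0149; -1.68 without pool 1; 0.0925 without pool 5). The TIE2 ligand gene Angpt1 averaged 62.8 ± 29.1 and 155.7 ± 52.6 CPM (log2 -1.38, adjusted p = 0.0154; 0.0683 and 0.103 without pools 3 and 5). Its receptor gene Tek averaged 1.4 ± 1.47 and 9.72 ± 2.61 CPM (log2 -2.84, adjusted p = 0.0306; 0.168, 0.106 and 0.0572) in CLP and MEP. Hoxa9 was the gene on the CLP side, at 54.7 ± 12.4 and 21.9 ± 5.57 CPM (log2 1.35, adjusted p = 0.0186; 0.0917 and 0.0857 without pools 3 and 5). The defining stem cell genes were low in both: Mecom had 3.09 ± 2.68 CPM in CLP and 2.27 ± 0.788 CPM in MEP (log2 -0.03, adjusted p = 0.985; 0.68 without pool 1). Hlf had 18.4 ± 16.2 and 13.4 ± 5.33 CPM (log2 0.12, adjusted p = 0.866; 0.70, adjusted p = 0.0408 without pool 1; -0.25 and -0.11 without pools 3 and 7). The control stem cell libraries had 109.8 to 149.6 CPM of Mecom and 237.1 to 315 CPM of Hlf in a joint scaling. Of 4 stromal and endothelial genes tested 2 were higher in CLP and 0 in MEP (0 to 2 and 0 to 1 when each pool was left out). Vcam1 averaged 32.4 ± 10.8 and 3.47 ± 1.13 CPM (log2 3.18, adjusted p = 0.00647; 0.0534 without pool 5) and Pecam1 97.8 ± 16.5 and 44.9 ± 14.4 CPM (log2 1.18, adjusted p = 0.0106; 0.0550, 0.0670 and 0.0531 without pools 3, 5 and 7). Control GMP libraries had 48.4 to 93.5 CPM of Vcam1 in the joint scaling, and their part in its CLP level was not tested. The defining stromal genes Cxcl12 and Lepr were too low to test, at 0 to 6.37 CPM and 0.441 to 2.01 CPM in CLP and 0.169 to 1.20 CPM and 0.317 to 0.567 CPM in MEP.

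Set beside the other control progenitors of batch A, 4 GMP and 3 hematopoietic stem cell (HSC) libraries scaled together with CLP and MEP, the lineage genes were low outside their own population with some exceptions. These levels are a description without a test. Dntt averaged 1729 ± 570.9 CPM in CLP, 28.8 ± 15.7 in MEP, 0.458 ± 0.674 in GMP and 0.310 ± 0.271 in HSC, so MEP libraries had more of it than GMP and HSC. Rag1, Pax5 and Il7r followed the same order of CLP, then MEP, with GMP and HSC lowest, and their HSC and GMP ranges overlapped. Car1 averaged 94.1 ± 94.6 CPM in CLP, 2453 ± 512.6 in MEP, 7.29 ± 3.59 in HSC and 3.99 ± 4.20 in GMP, so CLP libraries had more of it than HSC or GMP. Klf1 was ordered in the same way, at 11.1 ± 8.62 CPM in CLP, 214.8 ± 46.3 in MEP, 3.67 ± 0.0542 in HSC and 1.21 ± 0.820 in GMP. The lowest CLP library for Car1 had 19.3 CPM, above the HSC range of 3.33 to 10.4 CPM. For Klf1 the lowest CLP library was pool 5, at 1.6 CPM from 1 count. That is too few reads to place it against the HSC range of 3.62 to 3.72 CPM. The erythroid regulators were not as low in HSC. Gata1 averaged 12.9 ± 9.62 CPM in CLP, 212.1 ± 27.1 in MEP, 41.4 ± 8.23 in HSC and 5.19 ± 2.33 in GMP. Tal1 and Zfpm1 had 125.7 to 151 and 154.3 to 216.2 CPM in HSC. The primary granule list summed to 8574 to 16950 CPM in CLP, 1762 to 3036 in MEP, 35820 to 50840 in GMP and 1950 to 2653 in HSC. The eosinophil list summed to 325.7 to 3288 CPM in CLP, 25.5 to 31.7 in MEP, 485 to 1386 in GMP and 7.36 to 19.0 in HSC. The plasma cell list summed to 2165 to 15700 CPM in CLP, with no library of the other populations above 394.9 CPM.

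The contrast was repeated in the 4 treated pools, which share no mouse with the controls. Of 13449 genes tested there, 3172 differed between CLP and MEP (23.6%; 1759 higher in CLP, 13.1%, and 1413 higher in MEP, 10.5%). Of the 2060 control calls 2029 were tested in the treated libraries, 2026 had the same direction, 1834 were called in the same direction (90.4%) and 0 in the opposite one; these 1834 were 57.8% of the treated calls. Across the 12997 genes tested in both sets the log2 differences correlated with r = 0.919, where genes are not independent replicates. The treated count was 887 without pool 8 and 2064 without pool 4. By edgeR's quasi-likelihood interaction test, 0 of 15284 genes were called for a CLP against MEP difference that differed between treated and control mice (smallest adjusted p = 1). An unadjusted p under 0.05 was met by 107 genes. Without any true difference a share near 0.05 of the genes would meet it, so the test was conservative here. Its 0 calls therefore cannot show that the contrasts were alike.

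**Figure D5:**
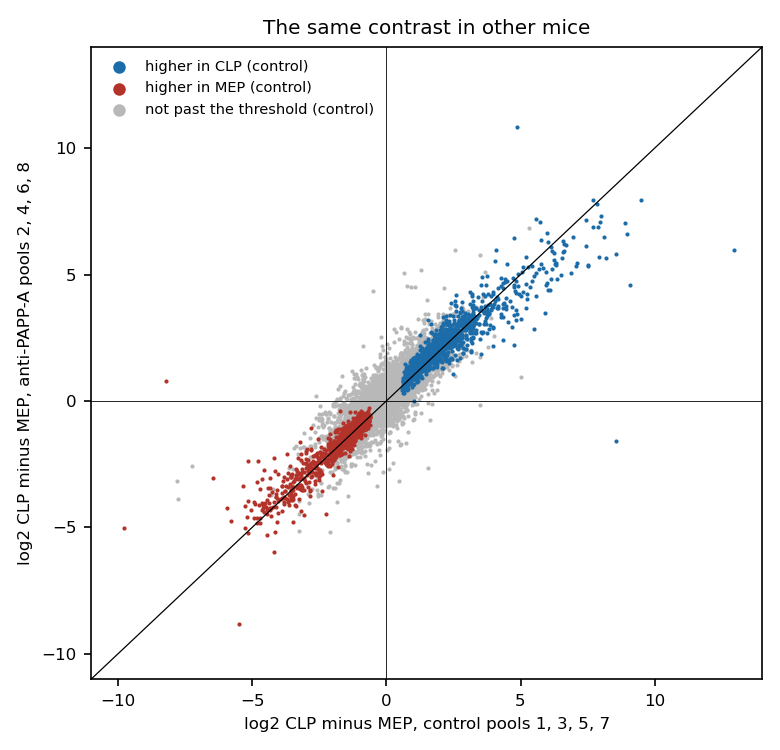
Log2 difference, CLP minus MEP, in control pools 1, 3, 5 and 7 (x axis) and in anti-PAPP-A pools 2, 4, 6 and 8 (y axis) for the 12997 genes tested in both; colours give the control call and the diagonal marks equal differences. Points follow the diagonal (r = 0.919), and 2026 of the 2029 control calls lie on the same side of 0 in both sets.

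Counts by list in the treated mice were as follows. The recombination and pre-B receptor list had 14 of 22 genes higher in CLP and 1 in MEP (median log2 4.18), lymphoid transcription factors 19 of 30 and 1 (2.17), and red cell membrane genes and enzymes 0 of 34 and 30 (-3.36). Primary granule genes had 20 of 21 higher in CLP (3.00), eosinophil genes 6 of 7 (6.88), and plasma and mature B cell genes 11 of 12 (5.06). Mitosis genes had 9 of 30 higher in CLP (0.61) and S phase genes 5 of 36 higher in MEP (-0.36). Globins had 0 of 4 called. Treated CLP pool 2 resembled control CLP pool 1, with a mature neutrophil sum of 12810 CPM against 598.6 to 2712 CPM in the other treated CLP libraries (the MEP library of pool 2 had 7761 CPM) and a mast cell and basophil sum of 2809 against 180.5 to 658.8 CPM. Dntt was 6.30 in treated mice (adjusted p = 0.000627), Car1 -4.58 (adjusted p = 0.000342), Klf1 -4.18 (adjusted p = 0.000212) and Grb10 -2.86 (adjusted p = 0.000737). Alas2 at -0.35 (adjusted p = 0.623) did not pass there either, and Alas1 was again higher in CLP (log2 2.02, adjusted p = 0.00565). Among genes that did not pass in the controls, Cd27 (log2 1.51, adjusted p = 0.00730), Bcl2 (1.63, 0.00788), Tfrc (-0.73, 0.0282) and Cebpa (1.64, 0.00133) passed in the treated mice. Irs2 was a control call with a treated difference of -0.02 (adjusted p = 0.965), and the 2 differences were not called different by the interaction test.

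Genome positions are given for the genes on which the lineage results rest, from the GENCODE M21 annotation of GRCm38. Dntt (ENSMUSG00000025014.12) spans chr19:41029275-41059525 on the plus strand, Rag1 (ENSMUSG00000061311.6) chr2:101638282-101649501 on the minus strand, Ebf1 (ENSMUSG00000057098.14) chr11:44617317-45008091 on the plus strand, Cd79a (ENSMUSG00000003379.7) chr7:24897381-24902197 on the plus strand and Il7r (ENSMUSG00000003882.4) chr15:9505788-9530176 on the minus strand. Car1 (ENSMUSG00000027556.15) spans chr3:14766216-14808368 on the minus strand, Klf1 (ENSMUSG00000054191.8) chr8:84901928-84905291 on the plus strand, Gata1 (ENSMUSG00000031162.14) chrX:7959260-7978071 on the minus strand, Epor (ENSMUSG00000006235.6) chr9:21958897-21963506 on the minus strand and Gfi1b (ENSMUSG00000026815.14) chr2:28609450-28621982 on the minus strand. Counts were summed over each gene, so no exon or UTR is resolved.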

How the data were processed

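RNA from sorted mouse marrow cells was made into strand-specific libraries, per the labels' protocols. The authors deposited estimated counts per gene, unscaled and already whole, from tools that the submitters' processing notes give as FastQC 0.11.5 and Salmon (no version) with build mm10. Repeated lines of a gene and sample were identical and 1 was kept, giving 56332 genes. Genes passing edgeR's filterByExpr were tested with edgeR 4.0.16 (robust quasi-likelihood, TMM, R 4.3.3), with mouse pool as a block and then population, and Benjamini-Hochberg adjusted p under 0.05 was called. The labels give a pool's CLP and MEP libraries as the same mice, which is the pairing; correlations of their deviations were -0.06, 0.07, 0.01 and -0.04. With this block, p-values measure the CLP minus MEP difference against its variation from pool to pool. The treated libraries were fitted likewise, and the interaction over 16 libraries. Alternatives used DESeq2 1.42.0 and limma 3.58.1. On simulated data with 200 changed genes the fit was checked for direction and calls.

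Named genes were the markers and key list genes, the 12 of smallest p in each direction, and up to 3 of smallest p per list and direction. The 12 were taken among called genes on the same side in every pool, with an Ensembl ID and no predicted or clone name. The 32 lists held 778 genes, of which 776 matched the table. Members and lists were chosen with earlier results of these data known, and the mitochondrially encoded list after the data were seen. Near-identical gene copies may share reads. Fewer cells of a type and less RNA per cell cannot be told apart. Positions are from GENCODE M21 and promoters from RefSeq, GRCm38.p6. Libraries of other batches and populations were not used, apart from the treated CLP and MEP libraries and, for levels and 1 alternative fit, control GMP and HSC libraries. Some named genes are not reported here.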

Additional observations from a re-analysis of the deposited data

Results flagged for a closer look

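In each group of 4 libraries, a gene stood out where the highest or lowest library was separated from its nearest neighbour by more of the whole range than Dixon's 95% critical value. Chance alone flags about 1 group in 20. Values are CPM, with the range of the other libraries of the group in parentheses where it helps. Among CLP libraries, pool 1 was high for neutrophil, basophil, dendritic cell and monocyte genes, with 3225 CPM for S100a8, 3865 CPM for S100a9, 761.6 CPM for Ltf, 54.28 CPM for Wfdc21, 1836 CPM for Mcpt8, 1882 CPM for Prss34, 100.2 CPM for Fcer1a, 159.2 CPM for Siglech and 203.7 CPM for F13a1. It was high for globin and stromal genes, with 501 CPM for Hba-a1, 110.9 CPM for Hbb-bt and 6.367 CPM for Cxcl12. For lymphoid genes and receptors it stood at 1646 CPM for Ly6d (others 107 to 228), 54.62 CPM for Ccr9 (others 10.4 to 17.7), 240.3 CPM for Bcl11a (others 155 to 168) and 61.66 CPM for Epha2 (others 26.1 to 31). The same library was high for regulators and a solute carrier, with 1183 CPM for Klf2, 334.4 CPM for Dusp5, 36.86 CPM for Mycl and 2.346 CPM for Slc45a3. Elsewhere among CLP, pool 3 was high with 2.535 CPM for Gp1ba and pool 7 with 94.63 CPM for Minpp1 and 1194 CPM for Mki67, while pool 7 was low with 333.4 CPM for Igfbp4. MEP pool 3 was the high MEP library with 0.762 CPM for Myl10 (others 0.238 to 0.284), 6.205 CPM for Emp1 (others 3.01 to 3.55), 50.62 CPM for Dntt (others 18.4 to 22), 2.177 CPM for Rag1 (others 0.238 to 0.386), 4.354 CPM for Vpreb1 (others 1.28 to 1.59), 56.06 CPM for Itgb7 (others 37.2 to 39.2), 10.67 CPM for Gp1ba (others 6.99 to 7.53) and 15.46 CPM for Pfkfb2 (others 10.5 to 10.9). Dntt, Rag1, Vpreb1 and Myl10 are lymphoid genes, and all 4 were high in that MEP library. MEP pool 1 was high with 217.7 CPM for Gfi1b, 146.2 CPM for Hba-a1, 9.991 CPM for Prg2, 8.088 CPM for Jchain and 45.36 CPM for E2f2 and low with 14.99 CPM for Cd53, 34.17 CPM for Hmox2, 131.4 CPM for Pkm and 18.95 CPM for Dusp5. MEP pool 7 was high with 0.02411 CPM for Igha, which is 1 count against 0 in the other MEP libraries.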

How the results depend on the processing

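With the mouse pool as a replicate block, 2060 genes differed between control CLP and control MEP. The count was 3430 with no replicate block, 3362 by DESeq2, 5341 by limma voom with quality weights, 3593 with no filter on low counts (1519 higher in CLP and 2074 in MEP), 4896 when all batch A control progenitors shared the fit, and 622 when tested against a log2 difference of 1. It ranged from 465 to 4371 when each pool was left out. Of the 2060 genes, 2031 were also called with no replicate block, 2054 by DESeq2 and 2060 by limma voom. Other scalings, a stricter filter, thinning and Ensembl genes alone gave 1518 to 2161, and leaving out pools 5 and 7 together, chosen after seeing the data, gave 1549. The treated count of 3172 ranged from 887 to 3442 when each pool was left out and was 3567 with no replicate block. The interaction count stayed 0 under the block, with no replicate block and with each pool left out. Of 151 named genes called, 69 kept direction and call in all 16 settings, 8 kept them in the 14 or 15 settings that tested them, and 74 lost the call in at least 1. Cpa3, at 0.15 and not called, was -0.69 by limma voom and ranged from -0.69 to 0.66 when each pool was left out. A bound of 1 asks for a larger difference by design. Each fit with a pool left out held fewer samples, and the control count was 4371 without pool 1 and 658, 465 and 1005 without pools 3, 5 and 7. The cause of these changes was not tested. CLP pools 5 and 7 had the fewest counts, 587316 and 1121453, which limits low genes there.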
